A study of Saccharomyces cerevisiae with 16 samples.

Results

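The 10 genes described here encode the proteins that hold a yeast mRNA at its 2 ends and the proteins that compete with or attach to them. They are the eIF4G genes *TIF4631* (YGR162W) and *TIF4632* (YGL049C), the eIF4E gene *CDC33* (YOL139C), the eIF4E-binding protein genes *CAF20* (YOR276W) and *EAP1* (YKL204W), the poly(A)-binding protein gene *PAB1* (YER165W), and the RNA-binding protein genes *PBP1* (YGR178C), *PUB1* (YNL016W), *SRO9* (YCL037C) and *SLF1* (YDR515W). They were chosen by name from a list of these factors, and all 10 were found in both deposited tables, among 5330 genes at 37 °C and 5190 genes at 15 °C. All 10 also passed the filter on low values (mean over the strains of at least 10 normalised units, in footprints as in mRNA), which left 5197 genes at 37 °C and 5012 at 15 °C once *TIF3* was set aside.

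In budding yeast, eIF4E binds the cap at the 5′ end of an mRNA and eIF4G binds eIF4E, the helicase eIF4A and, through Pab1, the poly(A) tail, so that both ends of the mRNA are held together in what is called a closed loop. Caf20 and Eap1 bind the face of eIF4E that eIF4G uses and thereby limit the assembly of eIF4E with eIF4G. eIF4B, encoded by *TIF3*, acts with eIF4A, eIF4G and eIF4E when the small ribosomal subunit is loaded onto an mRNA.

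The series measured ribosome-protected mRNA fragments (footprints) and total mRNA in *Saccharomyces cerevisiae*, in *tif3*Δ cells (strain FJZ52, no eIF4B) and in cells with wild-type *TIF3* (strain FJZ46). Cultures of both strains grew in synthetic complete medium, were shifted to 37 °C or to 15 °C, and all received cycloheximide before harvest. The labels give 16 libraries in 8 groups of 2 replicates, 1 group for each strain, temperature and library type. For each gene the tables give a group's log2 normalised value and nothing for its single libraries, so no spread between replicates, test or p-value can be given: "higher" and "lower" describe group values only. The sources used here do not say how the 2 libraries of a group became 1 value, nor how reads that match both members of a paralog pair were counted.

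The step between the lowest footprint values, which is the value of 1 footprint, put the footprints on listed genes at about 11915578 in *tif3*Δ and 17600625 in wild type at 37 °C, and at about 1860422 in *tif3*Δ and 5521560 in wild type at 15 °C. How deeply mRNA was sequenced is unknown. *TIF3* itself was 157-fold lower in footprints and 272-fold lower in mRNA in *tif3*Δ at 37 °C in the authors' deposited table, and 43.8-fold and 18.3-fold lower at 15 °C. Translational efficiency (TE) divides a gene's footprints by its mRNA. Values are relative to the other genes, so a shift shared by every gene is not seen.

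In the cells with eIF4B, most of the 10 mRNAs were translated more efficiently than the median gene. Wild-type TE was above that of the median gene for all 10 genes at 37 °C and for 9 of 10 at 15 °C, *PBP1* being the exception. *SRO9*, a La-motif protein found on translating ribosomes, had the highest wild-type TE of the 10 at both temperatures, at 5.03 times the median gene in *tif3*Δ and 6.73 times in wild type at 37 °C, and at 2.46 times in *tif3*Δ and 4.92 times in wild type at 15 °C. *PAB1* followed in wild type at 37 °C with 4.76 times the median gene, higher than 99.0% of all genes, and stood at 2.87 times in *tif3*Δ. Without eIF4B, TE stayed above the median gene for 9 of 10 genes at 37 °C and for 7 of 10 at 15 °C. The gene below it at 37 °C was *TIF4631*, at 0.84 times in *tif3*Δ against 1.71 times in wild type. The 3 genes below it at 15 °C were *PAB1* (0.66 times in *tif3*Δ, 2.68 times in wild type), *PBP1* (0.29 times in *tif3*Δ, 0.82 times in wild type) and *SLF1* (0.54 times in *tif3*Δ, 1.78 times in wild type). These TE levels come from group values given to 1 or 2 decimals, which limits them to about 0.1 on the log2 scale.

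Levels of different genes were compared per kb of coding sequence, on a log2 scale relative to the median gene of the same group. In wild-type footprints at 37 °C the order was *PAB1* (4.50), *CDC33* (4.27), *SRO9* (3.91), *CAF20* (3.62), *PUB1* (3.59), *TIF4631* (1.90), *PBP1* (1.72), *EAP1* (0.72), *TIF4632* (0.36) and *SLF1* (-0.47). At 15 °C *PAB1* and *CDC33* were level in wild type (4.39 and 4.38), while in *tif3*Δ *CDC33* stood at 4.52 and *PAB1* at 2.39. *SLF1* was the lowest of the 10 in each of the 4 footprint groups, at -0.67 in *tif3*Δ and -0.47 in wild type at 37 °C, and at -3.45 in *tif3*Δ and -0.73 in wild type at 15 °C. Neighbours in these orders cannot be separated by a replicate spread. In wild type the cap-binding protein and Pab1 thus led the set, with both eIF4G genes below them.

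**Figure D1:**
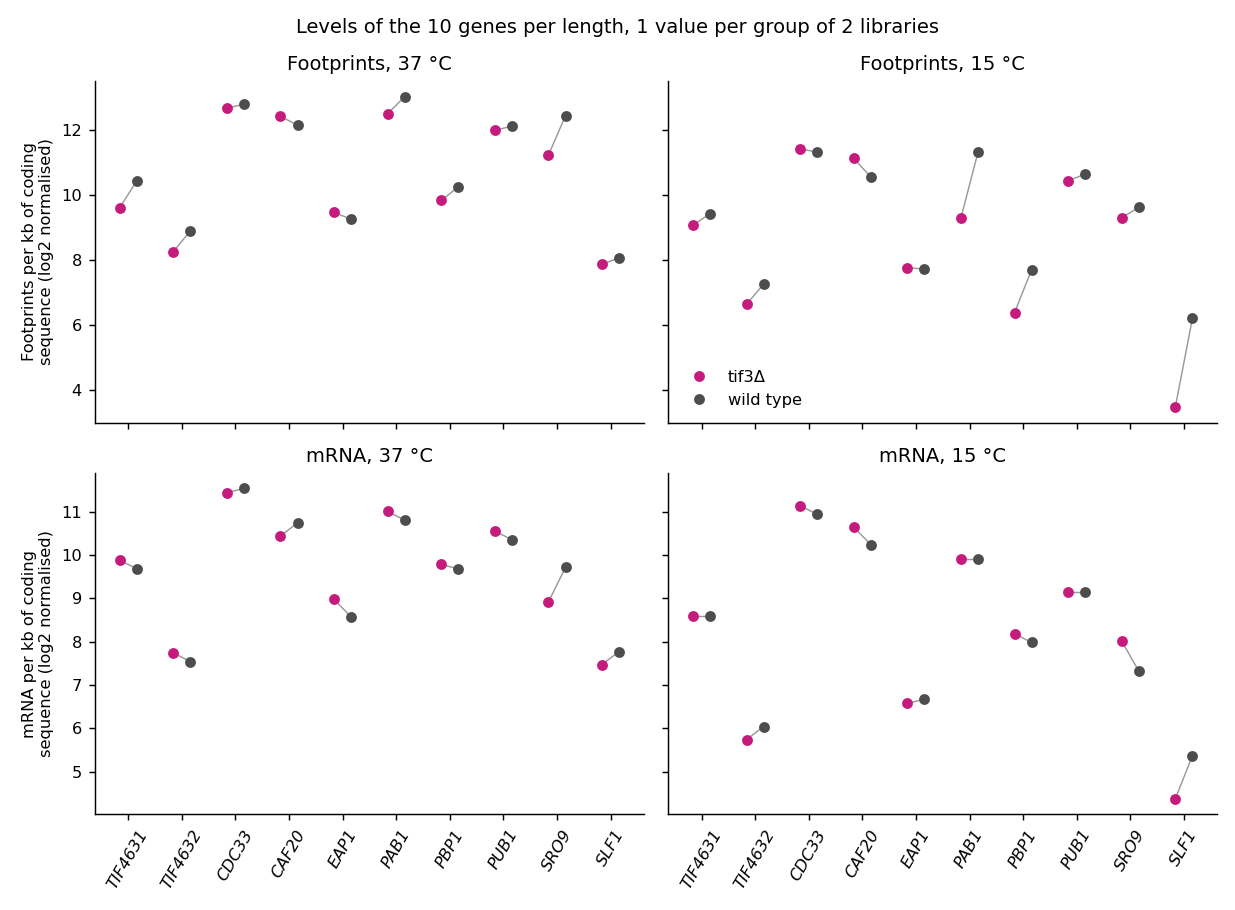
Footprints (upper panels) and mRNA (lower panels) of the 10 genes per kb of coding sequence, as log2 normalised values, at 37 °C (left) and 15 °C (right). Each point is the value of 1 group of 2 libraries, *tif3*Δ left of wild type, joined by a line; the steepest lines in footprints are those of *PAB1*, *PBP1* and *SLF1* at 15 °C and *SRO9* at 37 °C.

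At 37 °C both eIF4G mRNAs and the *PAB1* mRNA had lower TE in *tif3*Δ, and the *CAF20* mRNA had higher TE. By the authors' deposited table, TE was at least 1.5-fold lower for 3 of the 10 genes (*TIF4631*, *TIF4632*, *PAB1*), against 11.1% of all genes, and at least 1.5-fold higher for 1 (*CAF20*), against 10.3%. Footprints were at least 1.5-fold lower for 3 genes (*TIF4631*, *TIF4632*, *SRO9*; 13.2% of all genes) and higher for none (12.1%) in the authors' deposited table. In mRNA the same table had 1 gene at least 1.5-fold lower (*SRO9*; 8.87% of all genes) and none higher (8.77%). The median log2 difference of the 10 genes in the authors' deposited table was -0.40 in TE, -0.31 in footprints and 0.14 in mRNA, and that of all genes 0.038, 0.022 and -0.0084. Of the 10 genes, 8 had lower TE of any size, against 47.4% of all genes.

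At 15 °C the genes that stood apart were *PAB1*, *PBP1*, *SLF1* and *SRO9*, while both eIF4G genes and eIF4E were within 1.5-fold in TE. By the authors' deposited table, TE was at least 1.5-fold lower for these 4 genes (18.9% of all genes) and higher for none (13.9%). Footprints were at least 1.5-fold lower for 4 genes (*PAB1*, *PBP1*, *SLF1*, *TIF4632*; 20.7% of all genes) and higher for none (16.0%) in the authors' deposited table. In mRNA, *SLF1* was at least 1.5-fold lower (5.85% of all genes) and *SRO9* at least 1.5-fold higher (6.78%) in that table. The medians of the 10 genes in the authors' deposited table were -0.36 in TE, -0.35 in footprints and 0.059 in mRNA, beside -0.0029, 0.0092 and 0.0026 for all genes. Within the set of 10, *PAB1* was the only gene past 1.5-fold lower TE at both temperatures, and *TIF4632* the only such gene in footprints.

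**Figure D2:**
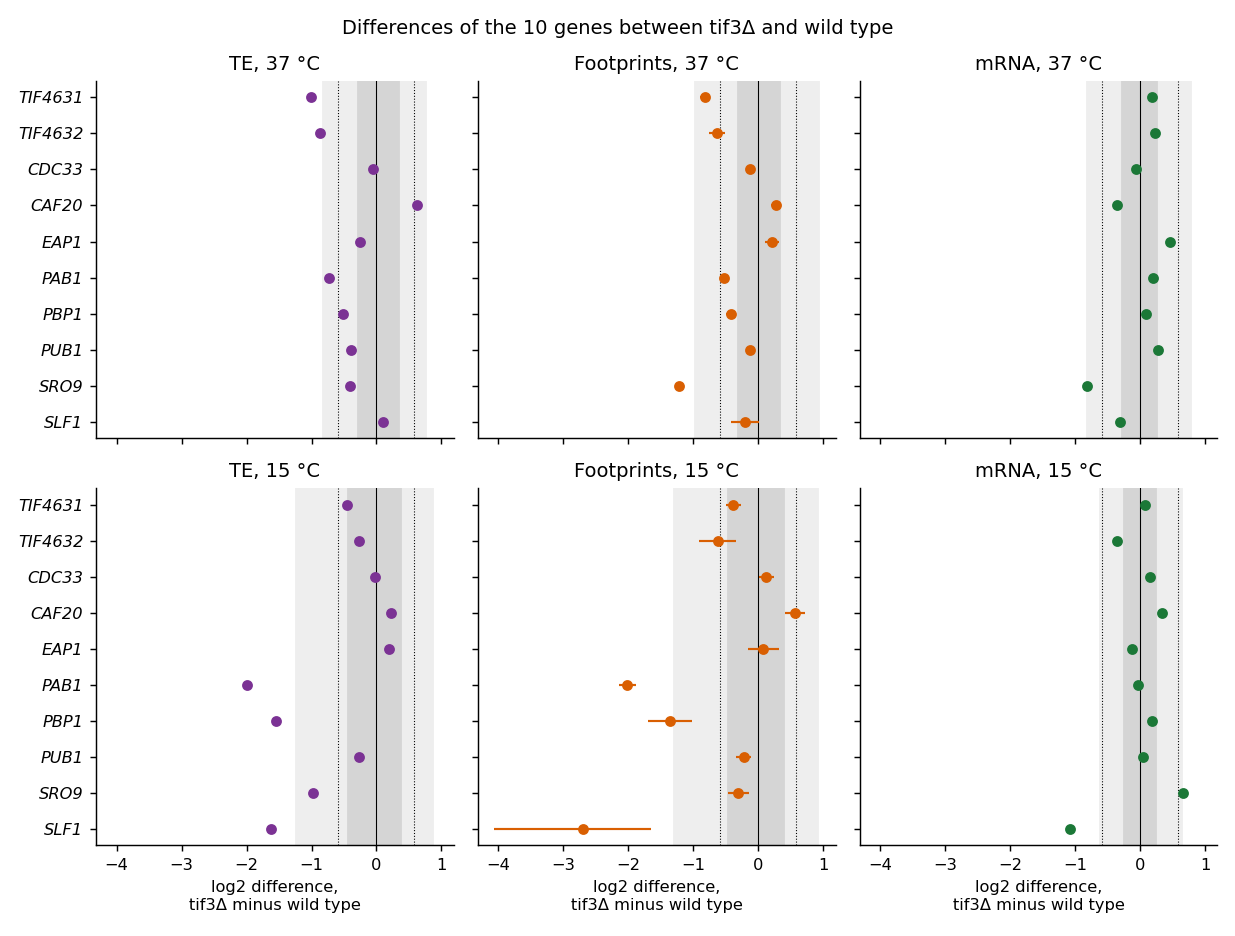
Log2 differences of the 10 genes in the authors' deposited tables, *tif3*Δ minus wild type, in TE, footprints and mRNA at 37 °C (upper) and 15 °C (lower). Dark and light grey bands hold the middle 50% and 90% of all genes, dotted lines mark 1.5-fold, and bars on footprints are 95% counting intervals; *PAB1*, *PBP1* and *SLF1* lie beyond the light band in TE at 15 °C.

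The eIF4G genes *TIF4631* and *TIF4632* are paralogs that encode alternative forms of the scaffold, eIF4G1 and eIF4G2. At 37 °C *TIF4631* had log2 footprint values of 11.13 in *tif3*Δ and 11.96 in wild type, and mRNA values of 11.4 in *tif3*Δ and 11.2 in wild type. *TIF4632* had footprint values of 9.72 in *tif3*Δ and 10.36 in wild type, and mRNA values of 9.2 in *tif3*Δ and 9.0 in wild type. Both genes therefore had fewer footprints on slightly more mRNA. Their log2 mRNA differences in the authors' deposited table were 0.19 and 0.23, beside a median of 0.16 for genes of similar coding length. In the authors' deposited table TE was 2.02-fold lower for *TIF4631*, which ranked 150 from the lowest among 5197 genes, and 1.82-fold lower for *TIF4632*, which ranked 235. Footprints were 1.77-fold lower for *TIF4631* and 1.55-fold lower for *TIF4632* in the authors' deposited table. The 95% counting intervals of the footprint difference, from about 2081 footprints in *tif3*Δ and 5442 in wild type for *TIF4631* and about 782 and 1795 for *TIF4632*, ran from -0.90 to -0.75 and from -0.76 to -0.51 on the log2 scale. These intervals are exact binomial (Clopper-Pearson) and cover counting error only, not the spread between cultures.

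At 15 °C *TIF4631* had footprint values of 10.6 in *tif3*Δ and 10.95 in wild type at an mRNA value of 10.1 in both, and *TIF4632* had 8.1 in *tif3*Δ and 8.72 in wild type, with mRNA at 7.2 in *tif3*Δ and 7.5 in wild type. TE was 1.37-fold lower for *TIF4631* and 1.21-fold lower for *TIF4632*, both short of 1.5-fold, by the authors' deposited table. For *TIF4632* the authors' deposited table put footprints 1.54-fold and mRNA 1.28-fold lower. The more abundant of the pair was *TIF4631* in every group: per kb, its footprints were 2.55 times those of *TIF4632* in *tif3*Δ and 2.91 times in wild type at 37 °C, and 5.43 times in *tif3*Δ and 4.50 times in wild type at 15 °C.

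Of the 10 genes, eIF4E had the smallest TE difference between the strains at both temperatures. *CDC33* had footprint values of 12.05 in *tif3*Δ and 12.17 in wild type at 37 °C, and 10.8 in *tif3*Δ and 10.69 in wild type at 15 °C. Its mRNA stood at 10.8 in *tif3*Δ and 10.9 in wild type at 37 °C, and at 10.5 in *tif3*Δ and 10.3 in wild type at 15 °C. In the authors' deposited table its TE difference came to -0.059 (37 °C) and -0.025 (15 °C) on the log2 scale. At this depth the footprint counting intervals were narrow, -0.18 to -0.063 at 37 °C and 0.012 to 0.24 at 15 °C.

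Both eIF4E-binding protein genes had higher footprint values in *tif3*Δ at both temperatures, though for *EAP1* at 15 °C the counting interval of the difference ran from -0.16 to 0.32. *CAF20*, the shorter and more abundant of the pair, had footprint values of 11.4 in *tif3*Δ and 11.12 in wild type at 37 °C and 10.1 in *tif3*Δ and 9.52 in wild type at 15 °C. Its mRNA was at 9.4 in *tif3*Δ and 9.7 in wild type at 37 °C, and at 9.6 in *tif3*Δ and 9.2 in wild type at 15 °C. In the authors' deposited table its TE was 1.54-fold higher at 37 °C and 1.17-fold higher at 15 °C, and its footprints were 1.21-fold and 1.48-fold higher. It was the only one of the 10 genes with higher TE in *tif3*Δ at both temperatures. *EAP1* had footprint values of 10.4 in *tif3*Δ and 10.19 in wild type at 37 °C, and 8.7 in *tif3*Δ and 8.65 in wild type at 15 °C. Its mRNA was 1.37-fold higher at 37 °C and 1.09-fold lower at 15 °C in the authors' deposited table, with TE 1.19-fold lower and 1.14-fold higher, all within 1.5-fold.

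*PAB1*, whose protein coats the poly(A) tail and binds eIF4G, showed the largest TE difference of the set at 15 °C. Its footprint value was 10.1 in *tif3*Δ and 12.13 in wild type at 15 °C, while its mRNA value was 10.7 in both. The authors' deposited table gave 4.04-fold fewer footprints, 3.97-fold lower TE and a log2 mRNA difference of -0.024. In TE it ranked 40 from the lowest among 5012 genes. The difference rested on about 516 footprints in *tif3*Δ and 6295 in wild type, with a counting interval of -2.14 to -1.88. At 37 °C its footprint value was 13.31 in *tif3*Δ and 13.84 in wild type, with mRNA at 11.8 in *tif3*Δ and 11.6 in wild type, and the authors' deposited table gave 1.66-fold lower TE and 1.44-fold fewer footprints. At 15 °C the mRNA was thus nearly level between the strains and the footprints were not. At 37 °C the mRNA was 1.15-fold higher in *tif3*Δ, so the TE difference there held both fewer footprints and more mRNA.

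*PBP1* encodes the yeast relative of ataxin-2, a protein that binds Pab1. At 15 °C its footprint value was 7.5 in *tif3*Δ and 8.83 in wild type, on mRNA at 9.3 in *tif3*Δ and 9.1 in wild type. The authors' deposited table put its TE 2.91-fold lower and its footprints 2.56-fold lower at 15 °C, from about 83 footprints in *tif3*Δ and 639 in wild type (counting interval -1.70 to -1.02). At 37 °C the footprint value was 10.96 in *tif3*Δ and 11.38 in wild type and the mRNA 10.9 in *tif3*Δ and 10.8 in wild type, with TE 1.42-fold lower in the authors' deposited table. *PBP1* mRNA was 1.06-fold higher in *tif3*Δ at 37 °C and 1.14-fold higher at 15 °C in the authors' deposited table.

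*PUB1* encodes a poly(U)-binding protein found in stress granules. It stood at 12.45 in *tif3*Δ and 12.58 in wild type in footprints at 37 °C, and at 10.9 in *tif3*Δ and 11.1 in wild type at 15 °C. Its mRNA value was 11 in *tif3*Δ and 10.8 in wild type at 37 °C and 9.6 in both strains at 15 °C. The authors' deposited table gave TE 1.32-fold lower at 37 °C and 1.21-fold lower at 15 °C, both short of 1.5-fold.

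The paralogs *SRO9* and *SLF1*, which share the La motif of RNA-binding proteins, differed from each other. *SRO9* had footprint values of 11.62 in *tif3*Δ and 12.84 in wild type at 37 °C, with mRNA at 9.3 in *tif3*Δ and 10.1 in wild type. In the authors' deposited table that came to 2.33-fold fewer footprints, 1.76-fold less mRNA and 1.33-fold lower TE, so most of the footprint difference lay in the mRNA. At 15 °C its mRNA ran the other way, at 8.4 in *tif3*Δ and 7.7 in wild type, and its footprint value was 9.7 in *tif3*Δ and 10.01 in wild type. The authors' deposited table put the mRNA 1.58-fold higher, TE 1.96-fold lower and footprints 1.24-fold lower there. *SRO9* was the only one of the 10 genes past 1.5-fold in mRNA in opposite directions at the 2 temperatures.

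*SLF1* had footprint values of 8.3 in *tif3*Δ and 8.5 in wild type at 37 °C, with mRNA at 7.9 in *tif3*Δ and 8.2 in wild type, and a log2 TE difference of 0.10 in the authors' deposited table. At 15 °C its footprint value was 3.9 in *tif3*Δ and 6.64 in wild type, and its mRNA value 4.8 in *tif3*Δ and 5.8 in wild type. The authors' deposited table gave 6.52-fold fewer footprints, 2.12-fold less mRNA and 3.08-fold lower TE. This rested on about 7 footprints in *tif3*Δ against 140 in wild type, and the counting interval of the footprint difference was -4.07 to -1.64. Its size is therefore uncertain, and its TE difference, with mRNA low as well, more so.

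Coding length went with the TE difference at 37 °C, among these genes as among all genes. The set runs from *CAF20*, with 486 nt in the R64 annotation, through *CDC33* (642 nt), *SRO9* (1305 nt), *SLF1* (1344 nt), *PUB1* (1362 nt), *PAB1* (1734 nt), *EAP1* (1899 nt) and *PBP1* (2169 nt) to *TIF4632* (2745 nt) and *TIF4631* (2859 nt). The shortest had the highest and the longest the lowest TE difference at 37 °C. Between coding length and TE difference Spearman's rho was -0.83 over the 10 genes and -0.65 over 5195 genes at 37 °C, and -0.30 and -0.070 (5010 genes) at 15 °C. For footprints rho was -0.49 over the 10 genes and -0.32 over all genes at 37 °C, and -0.48 and -0.23 at 15 °C. For mRNA it was 0.62 over the 10 genes and 0.34 over all genes at 37 °C, and -0.41 and -0.29 at 15 °C. Longer genes thus tended to lower footprint differences at both temperatures, while the relation with mRNA was of opposite sign at 37 °C and 15 °C. These describe genes of the same libraries, which are not independent.

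All genes were put in 10 classes of equal size by coding length. Set against the median of their class, 8 of the 10 genes had lower TE in *tif3*Δ at each temperature. The median of the 10 was -0.41 at 37 °C and -0.30 at 15 °C. By the definition of a median, as many genes of a class lie below it as above it. The 8 included *EAP1* at -0.060 at 37 °C and *CDC33* at -0.085 at 15 °C. At 37 °C *TIF4631* stood 0.72 log2 units below genes of its length (value -0.72), *PAB1* at -0.58, *TIF4632* at -0.57, *CDC33* at -0.43, *SRO9* at -0.42, *PUB1* at -0.41, *PBP1* at -0.21, *EAP1* at -0.060, *SLF1* at 0.090 and *CAF20* at 0.25. On this scale 1 of the 10 was at least 1.5-fold lower at 37 °C (*TIF4631*; 6.24% of all genes) and none higher (5.08%). At 15 °C 4 were lower (*PAB1*, *PBP1*, *SLF1*, *SRO9*; 18.4% of all genes) and none higher (14.1%), with *PAB1* at -1.87, *SLF1* at -1.57, *PBP1* at -1.48 and *SRO9* at -0.92.

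**Figure D3:**
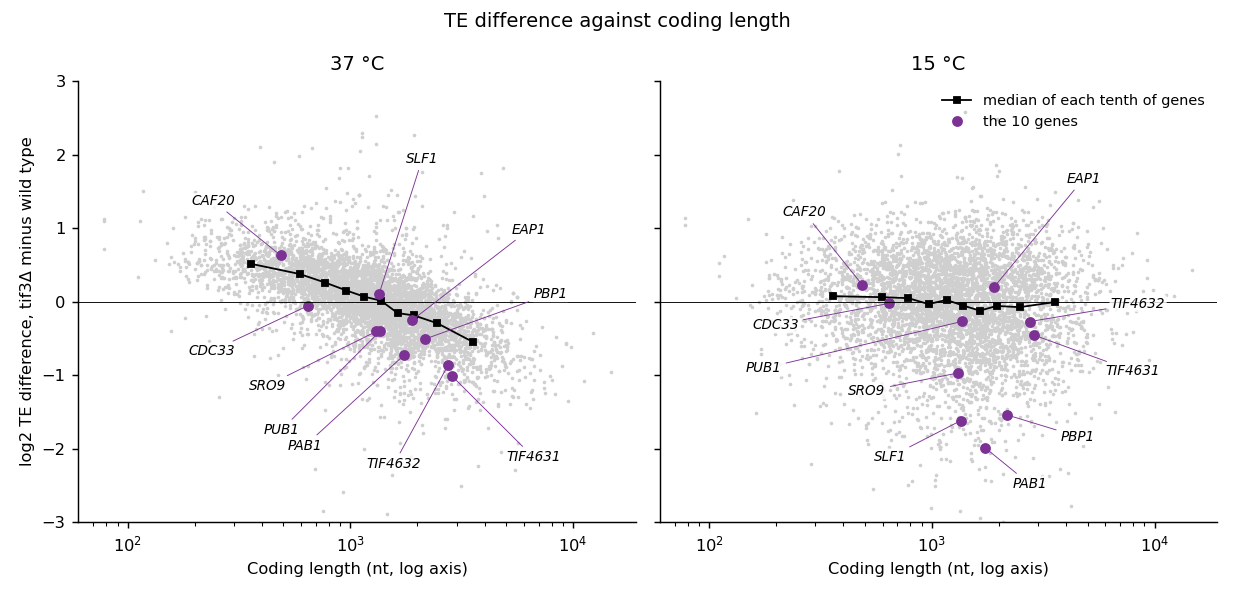
Log2 TE difference (*tif3*Δ minus wild type, authors' deposited tables) against coding length on a log axis at 37 °C (left) and 15 °C (right); grey points are all genes past the filter except 4 at 37 °C and 6 at 15 °C that lie beyond the axis, and black squares are medians of 10 equal classes of genes by length. At 37 °C *CAF20*, the shortest, is highest and *TIF4631*, the longest, lowest of the 10, and at 15 °C *PAB1*, *PBP1*, *SLF1* and *SRO9* lie below a nearly flat line of medians.

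The footprints per kb of the factors were also set beside each other, since eIF4G and the eIF4E-binding proteins bind eIF4E at one face. The summed eIF4G genes had 0.165 times the footprints per kb of *CDC33* in *tif3*Δ and 0.261 times in wild type at 37 °C, and 0.231 times in *tif3*Δ and 0.329 times in wild type at 15 °C. For *CAF20* and *EAP1* together the ratio to *CDC33* was 0.95 in *tif3*Δ and 0.724 in wild type at 37 °C, and 0.892 in *tif3*Δ and 0.669 in wild type at 15 °C. The ratio of the eIF4E-binding proteins to eIF4G was accordingly 5.75 in *tif3*Δ and 2.77 in wild type at 37 °C, and 3.85 in *tif3*Δ and 2.04 in wild type at 15 °C. In mRNA per kb this ratio was 1.63 in *tif3*Δ and 2.07 in wild type at 37 °C, and 3.87 in *tif3*Δ and 2.92 in wild type at 15 °C. The footprint ratio was thus higher in *tif3*Δ at both temperatures, and the mRNA ratio at 15 °C but not at 37 °C. *CAF20* is the shortest and *TIF4631* the longest of the set, and the part of length in this ratio was not tested.

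*PAB1* footprints were level with those of *CDC33* in wild type at 15 °C and lower in *tif3*Δ. *PAB1* had 0.887 times the footprints per kb of *CDC33* in *tif3*Δ and 1.18 times in wild type at 37 °C, and 0.228 times in *tif3*Δ and 1.00 times in wild type at 15 °C. Relative to the summed eIF4G genes, *PAB1* stood at 5.37 in *tif3*Δ and 4.52 in wild type at 37 °C, and at 0.985 in *tif3*Δ and 3.06 in wild type at 15 °C. These are ratios of footprints, and no protein was measured.

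**Figure D4:**
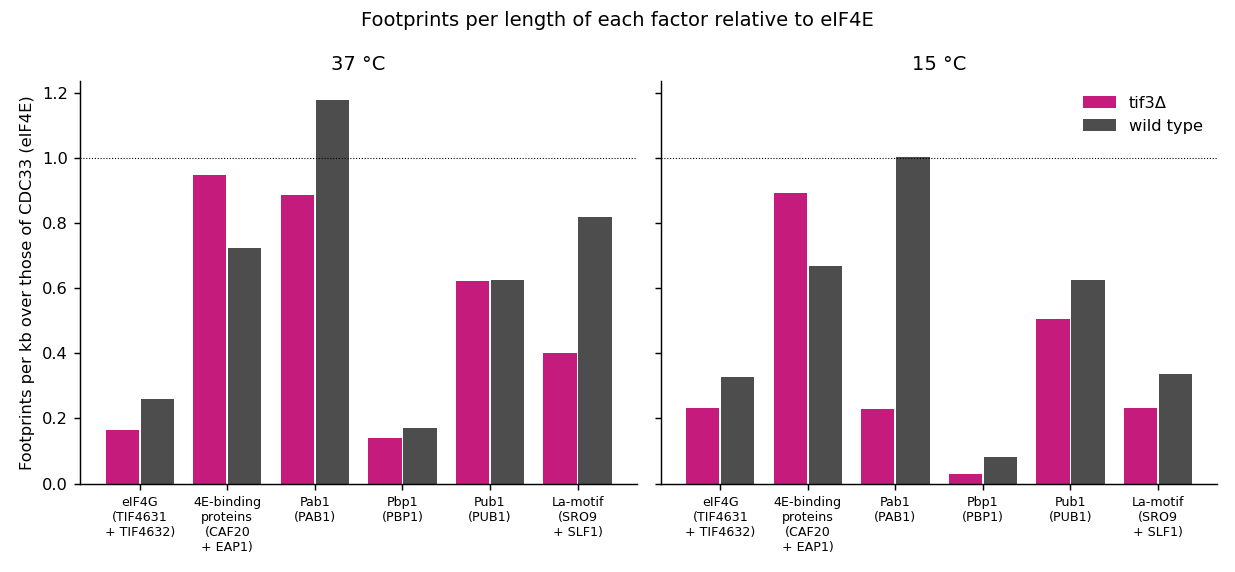
Footprints per kb of coding sequence of each factor divided by those of *CDC33* (eIF4E), at 37 °C (left) and 15 °C (right); bars give *tif3*Δ left of wild type, from 1 value per group of 2 libraries, and the dotted line marks equality with eIF4E. The bar of Pab1 at 15 °C is 0.228 in *tif3*Δ against 1.00 in wild type. Only the summed bar of *CAF20* and *EAP1* is higher in *tif3*Δ at both temperatures. *EAP1* alone was at 0.0789 in *tif3*Δ and 0.0822 in wild type at 15 °C.

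The TE differences at 37 °C and 15 °C were also subtracted from each other for the 4999 genes past the filter in both tables. Each temperature has its own table, which may have its own scaling, so temperature and table cannot be told apart here. The TE difference in the authors' deposited tables was higher at 37 °C than at 15 °C by 1.72 log2 units for *SLF1*, 1.26 for *PAB1*, 1.03 for *PBP1* and 0.57 for *SRO9*, beside a median of 0.05 over all genes. It was also higher at 37 °C for *CAF20* (0.40), and lower for *TIF4632* (-0.59), *TIF4631* (-0.56), *EAP1* (-0.44), *PUB1* (-0.13) and *CDC33* (-0.034). For mRNA the largest such value was that of *SRO9* (-1.48), with 0.87% of all genes lower. Whether these differ beyond the replicate spread was not tested, since the tables hold no replicates.

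In wild type, levels relative to the median gene of each table, whose scalings may differ, also differed between 37 °C and 15 °C. *CAF20* and *CDC33* mRNA was lower at 37 °C than at 15 °C by this measure (-1.20 and -1.10 log2 units), with TE higher (1.09 and 0.87). *SRO9* mRNA and footprints were higher at 37 °C (0.70 and 1.17). *TIF4631* was lower at 37 °C in both mRNA (-0.60) and footprints (-0.65), with TE nearly level (-0.10).

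The genes most like a member in their 8 group values were found among 4464 genes by the root mean square difference over the 8 values, each taken relative to the median gene of its group and to the gene's own mean. For *CDC33* they were the ribosomal protein genes *RPL21B*, *RPS18A* and *RPL2B*, at 0.11 log2 units each, where the median gene was at 0.71. For *PAB1* they were *PMA2* (0.22) and *PMA1* (0.24), which encode plasma membrane proton pumps closely alike in sequence and may share reads, and *SHM1* (0.23), a mitochondrial serine hydroxymethyltransferase, against a median of 0.94. For *TIF4631* they were the cell wall protein gene *SCW10* (0.17), the aldehyde dehydrogenase gene *ALD3* (0.18) and *ACH1* (0.22), a mitochondrial CoA transferase, against a median of 0.65. The closest of the other 9 genes was *CAF20* for *CDC33* (0.24), *CDC33* for *TIF4631* (0.44) and *TIF4632* for *PAB1* (0.54), and *TIF4632* was at 0.46 from *TIF4631*. This likeness is over levels, and TE differences could still part. At 37 °C the log2 TE difference was -0.71 for *PMA1*, -0.48 for *PMA2* and -0.16 for *SHM1*, beside -0.73 for *PAB1*. At 15 °C these 3 genes were at -2.38, -2.12 and -1.37, beside -1.99 for *PAB1*. *RPL21B*, *RPS18A* and *RPL2B* were at 0.22, 0.54 and 0.28 at 37 °C, beside -0.059 for *CDC33*. They were at -0.39, -0.32 and -0.45 at 15 °C, beside -0.025 for *CDC33*. *SCW10*, *ALD3* and *ACH1* were at -0.83, -0.96 and -0.52 at 37 °C, beside -1.01 for *TIF4631*. Their values at 15 °C were -0.11, -0.24 and -0.94, beside -0.45 for *TIF4631*.

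Other genes of mRNA binding and of the closed loop were taken from 4 lists of 30 genes, of which 28 had values past the filter in both tables; *TIF1* and *PBP4* were not analysed here. By the authors' deposited table, TE at 37 °C was at least 1.5-fold lower for 9 of the 28 and higher for none, with a median of -0.29. At 15 °C it was at least 1.5-fold lower for 4 and higher for 3, with a median of 0.0098. Relative to genes of their length class, 2 of the 28 were at least 1.5-fold lower in TE at 37 °C (*XRN1* at -0.86 and *VTS1* at -0.59 on the log2 scale) and none higher, with a median of -0.18. By that measure 4 were lower and 2 higher at 15 °C. In footprints the counts in the same tables were 7 lower and 0 higher at 37 °C and 7 lower and 3 higher at 15 °C, and in mRNA 1 lower and 2 higher at 37 °C and 2 lower and 0 higher at 15 °C. The shares of all genes are those given above.

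Among the helicases that work with eIF4G, TE of *DED1*, which unwinds mRNA leaders, was 1.62-fold lower at 37 °C and 1.16-fold higher at 15 °C in the authors' deposited table. *DBP1*, a paralog of *DED1*, had the highest TE difference of these helicases at 15 °C (0.43 in the authors' deposited table), from about 20 footprints in *tif3*Δ and 56 in wild type. *TIF2*, an eIF4A gene, was within 1.12-fold at both temperatures (log2 TE differences of 0.023 and 0.16), and its reads may be shared with its identical-protein copy *TIF1*. Among the poly(A)-tail and Pab1 partners, 3 of 10 had at least 1.5-fold lower TE at 37 °C in the authors' deposited table, against 11.1% of all genes. They were *NAB6* (1.72-fold), the nuclear poly(A)-binding protein gene *NAB2* (1.55-fold) and *PAN3* (1.51-fold). None of the 3 was past 1.5-fold relative to its length class, at -0.23, -0.47 and -0.41 on the log2 scale. Footprints were 1.09-fold lower for *NAB6*, 1.65-fold for *NAB2* and 1.32-fold for *PAN3*, and *NAB6* mRNA was 1.58-fold higher. The highest of that list at 37 °C was *LSM12* (0.50 on the log2 scale). *PAN3*, a subunit of a poly(A) nuclease that binds Pab1, was the lowest of the list at 15 °C, at 3.19-fold lower TE in the authors' deposited table from about 35 footprints in *tif3*Δ and 320 in wild type. Its partner *PAN2* was 1.63-fold higher in TE there in the authors' deposited table, from about 51 and 150 footprints, so the 2 subunits differed in direction at low depth. For *PAN2* the footprints were nearly level (1.02-fold higher) and the mRNA 1.60-fold lower. For *PAN3* the footprints were 3.01-fold lower and the mRNA 1.06-fold higher.

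Of the RNA-binding proteins of mRNPs, 5 of 13 had at least 1.5-fold lower TE at 37 °C in the authors' deposited table, against 11.1% of all genes. They were the exonuclease gene *XRN1* (2.67-fold, listed as *KEM1*), *SSD1* (2.04-fold), the decapping activator *PAT1* (1.75-fold), *VTS1* (1.67-fold) and the helicase *DHH1* (1.54-fold). Relative to their length class, 2 of the 13 were past 1.5-fold lower (*XRN1* and *VTS1*), against 6.24% of all genes. *PAT1*, *SSD1* and *DHH1* were short of it, at -0.51, -0.48 and -0.46 on the log2 scale. Footprints were also at least 1.5-fold lower for *XRN1*, *PAT1* and *VTS1*. For *SSD1* footprints were 1.18-fold lower and mRNA 1.72-fold higher, and for *DHH1* 1.19-fold lower and 1.29-fold higher. At 15 °C the authors' deposited table had 3 of the 13 at least 1.5-fold lower in TE, against 18.9% of all genes. They were *GBP2* (2.54-fold), *PAT1* (1.66-fold) and *XRN1* (1.59-fold). It had 1 higher, *HRB1* (1.75-fold), against 13.9% of all genes. The value of *GBP2* came from about 66 footprints in *tif3*Δ and 446 in wild type. *HRB1* was also the highest of this list at 37 °C (log2 TE difference 0.35). *GBP2* and *HRB1*, paralogs that take part in mRNA export, thus stood at the opposite ends of their list at 15 °C. The nuclear cap-binding complex genes *STO1* and *CBC2* had log2 TE differences of -0.30 and 0.31 at 37 °C and 0.24 and 0.59 at 15 °C in the authors' deposited table, with *CBC2* at the 1.5-fold line at 15 °C.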

How the data were processed

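Per the labels, 16 libraries of footprints and mRNA form 8 groups of 2. Each deposited table holds log2 normalised values, 1 per gene and group, and the authors' log2 differences, *tif3*Δ minus wild type. The submitters' processing notes name the build sacCer2 and the tools TopHat2 2.0.7, DESeq, Bowtie2 2.0.6 and CASAVA 1.8, with no role or order; the scaling and the counting of reads that match paralogs are not given in the sources used here. The deposited differences equal the group values subtracted within 0.0546 in footprints and 0.0996 in mRNA, the rounding of the group values.

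The planned count model needs single libraries and could not be run, so values are described without a test. With 1 value per group, genes past 1.5-fold were counted after a filter: footprints and mRNA each had to average at least 10 normalised units over the strains, with a footprint in each strain, and *TIF3* was left out. The value of 1 footprint was the median of the lowest values within 1.3 times the lowest above 0; of values up to about 6 footprints, 100.0% in *tif3*Δ and 98.7% in wild type at 37 °C and 85.5% in *tif3*Δ and 84.0% in wild type at 15 °C lay within 0.15 of a whole number, so footprint numbers at 15 °C are less exact. This step was tested on simulated data with 1 count per gene and group. The simulation did not join 2 libraries into 1 value, so it cannot show how well the step holds for such groups. Coding lengths are from the RefSeq R64 annotation, matched by systematic name (5328 of 5330 and 5188 of 5190 genes); R64 is not the authors' build, so no coordinates or sequences are given. No other annotated gene of R64 overlaps any of the 10. Pattern likeness used only genes averaging at least 32 units in footprints and in mRNA in each table.

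The 10 genes, the lists and the 1.5-fold size were chosen with earlier results of these data known. The rule for named genes was all 10 genes, the 3 genes most like *TIF4631*, *CDC33* and *PAB1*, and from each list the highest, the lowest and those past 1.5-fold, applied here to TE. Python 3.11.15, pandas 2.3.3, NumPy 2.4.6, SciPy 1.17.1 and matplotlib 3.10.9 were used. Alternatives were another scaling, coding length, the group values subtracted, other filters, 2-fold in place of 1.5-fold, and, chosen after seeing the data, leaving out *SLF1* and setting the listed genes relative to their length class.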

Additional observations from a re-analysis of the deposited data

How the results depend on the processing

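No paired analysis was possible because the tables hold no value of a single library; leaving out each replicate was not run for the same reason. Scaling to the median gene, with the filter at 10, at 32 or absent, left all 60 differences of the 10 genes counted as the same. With the filter at 10 it shifted each by the median of all genes, at most 0.038 log2 units (TE at 37 °C). Subtracting the group values moved 2 of 60, and setting the differences relative to genes of the same length class moved 30 of 60. None changed sign among those past 1.5-fold. The count of genes past 1.5-fold in TE at 37 °C, 4, was 1 relative to genes of their length and 1 at 2-fold, which is *TIF4631* in both cases. At 2-fold the counts were 1 in footprints at 37 °C (from 3), 0 in mRNA at 37 °C (from 1) and 1 in mRNA at 15 °C (from 2). Relative to genes of their length the footprint median at 15 °C was -0.22 in place of -0.35. Without *SLF1*, an alternative added after the data were seen, the footprint median at 37 °C was -0.42 in place of -0.31 and the mRNA count at 15 °C was 1. The footprint level of *TIF4632* in *tif3*Δ, above the median gene per gene, was below it per coding length (-0.28 at 37 °C and -0.28 at 15 °C). Depth limits *SLF1* most, with about 7 footprints in *tif3*Δ at 15 °C.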
